A study of Mus musculus with 102 samples.

Results

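The 9 genes described here, Nrep, Ccdc3, Stfa3, Tcim, Ntrk2, Cdh4, Car12, Antxr2 and Grm4, had a lower mean level over the day under calorie restriction (CR) than under control diet in epidermal stem cells of both adult and aged mice. They were chosen for that difference from the 17097 genes with a probe set of their own, of which 13383 passed the filter on dim genes. All 9 passed it. The size and sign of their diet effect at each age is therefore a description of how they were chosen and carries no test. Their course over the day, their relation to age, their other probe sets and how they varied together between animals were not used in the choice.

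The cells were epidermal stem cells of Per1-Venus BAC transgenic mice with a C57B6/J background, in which a fluorescent protein reports the clock gene Per1, and both the control and the restricted animals carried the transgene. Mice aged 47 to 57 weeks (adult) or 83 to 97 weeks (aged) received control diet ad libitum or food reduced by 30% against what the control animals ate, for 25 weeks. Before that, over 3 weeks of adaptation, the food of the restricted animals was lowered by 10% per week. Cells were taken at zeitgeber times (ZT, hours after lights on) 0, 4, 8, 12, 16 and 20, and on each day of collection only 1 time point was sampled. Each array was 1 sample: 23 of adult control, 30 of adult CR, 24 of aged control and 25 of aged CR mice, with 3 to 6 arrays at each of the 6 time points. The series' design text gives 4 mice per time point and diet group, which differs from these numbers, and no label names the mouse of an array. Levels are log2 expression values, in which a difference of 1 is a doubling, and the median of all values on an array lay between 5.466 and 5.714.

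Epidermal stem cells sit in the basal layer and in the hair follicle and renew the skin over a daily cycle of division and repair. The 9 genes belong to no single pathway. Nrep encodes a small protein that raises the translation of TGF-beta in wounds, and Ccdc3 encodes a secreted protein known from fat and endothelium. Ntrk2 encodes TrkB, the receptor of the neurotrophins BDNF and NT-4, Antxr2 encodes a receptor of the matrix proteins collagen and laminin that anthrax toxin uses for entry, and Grm4 encodes a metabotropic glutamate receptor. Cdh4 encodes R-cadherin, an adhesion protein, Car12 a carbonic anhydrase of the cell membrane, Stfa3 a stefin that inhibits cysteine proteases of the cathepsin family, and Tcim a small regulator that acts in Wnt and inflammatory signalling.

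The markers of the labelled cell type were held against the filter, which 13383 of all 17097 genes passed. All 8 basal keratinocyte markers passed the filter, and their median level lay at 11.6 in each of the 4 conditions. Of 9 bulge markers 5 passed, with Cd34, Lgr5, Lhx2 and Tbx1 under the filter. Suprabasal markers passed as well, 7 of 8, with Krt1 at a mean of 11.8 and Krt10 at 11.6 over all arrays. Passing the filter therefore does not identify the cell type. Of 8 fibroblast markers 5 passed, with Col1a2, Lum and Pdgfra under it, and of 10 neutrophil markers 2 passed. Arrays correlated with each other at a median r of 0.983, and 3 arrays stood apart, with a median r of 0.921 (adult control ZT 0 replicate 1), 0.934 (aged control ZT 4 replicate 2) and 0.939 (aged CR ZT 0 replicate 4). Without these 3 the diet effects of the 9 genes ran from -0.93 (Nrep) to -0.32 (Antxr2) in adult and from -0.89 (Nrep) to -0.30 (Ntrk2) in aged mice, beside the values with them given next. In these bulk samples, fewer cells of a type and less RNA per cell cannot be told apart.

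The sequences just upstream of 3 members are shown because 2 of them (Stfa3 and, less firmly, Antxr2) were called rhythmic in a curve common to all conditions and the third (Ntrk2) was not, so that the promoters can be read beside the profiles. The RefSeq promoter table (GRCm38.p6) held 5 of the 9 genes. The 250 bases before the start site were read 5′ to 3′ on the gene's strand. For Ntrk2 the 153 bases upstream of the start of its annotated gene are printed, and for Ccdc3 and Car12 none, since their windows lie within the annotated gene. Capitals mark a match, on either strand, to 1 of 9 motifs.
Stfa3 (chr16:36455393-36455642, minus strand): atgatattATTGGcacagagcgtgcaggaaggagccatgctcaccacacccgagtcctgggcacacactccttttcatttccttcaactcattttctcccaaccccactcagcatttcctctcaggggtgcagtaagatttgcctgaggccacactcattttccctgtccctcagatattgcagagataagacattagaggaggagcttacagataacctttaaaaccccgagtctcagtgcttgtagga
Ntrk2 (chr13:58806319-58806471, plus strand): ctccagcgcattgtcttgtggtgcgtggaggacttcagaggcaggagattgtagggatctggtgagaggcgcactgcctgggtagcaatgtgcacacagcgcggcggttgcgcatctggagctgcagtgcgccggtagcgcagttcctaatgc
Antxr2 (chr5:98031018-98031267, minus strand): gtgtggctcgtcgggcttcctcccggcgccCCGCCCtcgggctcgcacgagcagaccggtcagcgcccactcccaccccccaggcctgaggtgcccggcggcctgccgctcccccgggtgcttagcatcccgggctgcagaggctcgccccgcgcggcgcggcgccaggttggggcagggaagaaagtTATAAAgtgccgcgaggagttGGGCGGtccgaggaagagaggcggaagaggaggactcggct
The motifs searched were the E-box that clock proteins bind (CACGTG), the D-box (TTATGTAA), the cAMP response element (TGACGTCA), the AP-1 site (TGACTCA), the GC box (GGGCGG), the TATA box (TATAAA), the FOXO site (TTGTTTAC), the CCAAT box and a second E-box (CAGCTG). Overlaps between the motifs were allowed. The E-box occurred in 6.02% of the 32851 promoter windows of that length and in none of the 5 held here, nor did the D-box (0.819% of windows). GC boxes, held by 32.7% of windows, occurred in Antxr2 at 220 and 41 bases, in Ccdc3 at 2 places, the nearer at 72 bases, and in Car12 at 35 bases before the start. Antxr2 also held a TATA box at 62 bases (12.4% of windows), and a CCAAT box (33.8% of windows) lay at 242 bases in Stfa3 and at 79 bases in Ccdc3. The window of Ntrk2 held none of the 9. The GC content was 48.4% in Stfa3, 62.8% in Ntrk2 and 72.8% in Antxr2, against a median of 52.4% over all windows. A match is a string of letters and no evidence that a factor binds there.

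Over the whole array, the daily mean was called lower under CR (limma, Benjamini-Hochberg adjusted p under 0.05) for 31 genes in adult mice (0.232% of those tested) and 26 in aged mice (0.194%). At both ages 15 genes were called lower (0.112%), and the 9 genes are among them by choice. The other 6 were Col6a1, 2210408K08Rik, Thy1, Ifi203, Npnt and Sfrp1, with differences from -0.27 (Sfrp1, adult) to -1.06 (Col6a1, aged). The median difference of the 9 genes was -0.43 in adult and -0.42 in aged mice, against 0.02 and 0.00 over all genes tested, on the log2 scale.

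Nrep showed the largest difference of the 9 genes. Adult control arrays lay between 5.90 and 8.41 with a median of 7.11, and adult CR arrays between 5.23 and 8.11 with a median of 6.07. Aged control arrays lay between 5.76 and 8.07 (median 6.79) and aged CR arrays between 5.10 and 6.91 (median 6.00). The ranges overlapped widely, with 26 of 30 adult and 24 of 25 aged CR arrays under the control median of their age. The CR minus control difference, averaged over the 6 time points, was -0.89 ± 0.18 (SE) in adult and -0.85 ± 0.18 in aged mice, a level 1.85-fold and 1.80-fold lower.

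Stfa3 differed by nearly as much, at -0.77 ± 0.15 in adult and -0.81 ± 0.16 in aged mice. Its median was 6.81 (range 5.67 to 7.82) in adult control and 5.83 (4.99 to 8.45) in adult CR arrays. The aged arrays had medians of 6.27 (4.84 to 7.97) under control diet and 5.31 (4.70 to 6.67) under CR. Of the adult CR arrays 14 of 30 lay under every adult control array, while 1 of them, at 8.45, was above every control array. Stefin A genes are close copies of each other, so part of this probe set's signal may come from its relatives, which the array does not separate. Neutrophils are a known source of stefins, and the mean of the 2 neutrophil markers that passed had a median of 5.78 on adult control and CR arrays alike, and of 5.77 and 5.81 on aged control and CR arrays, while its part in the result was not tested. S100a8, Csf3r, Cxcr2, Mmp8, Elane and Ngp were under the filter.

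Ccdc3 and Tcim formed the next step. The level of Ccdc3 fell by 0.49 ± 0.12 in adult and by 0.67 ± 0.12 in aged mice, from a median of 9.37 (8.51 to 9.97) to 8.77 (7.85 to 9.71) and from 9.07 (7.92 to 10.00) to 8.30 (7.60 to 9.79). For Tcim the difference was -0.50 ± 0.11 and -0.52 ± 0.12, from a median of 10.27 (9.30 to 10.90) to 9.59 (7.65 to 10.56) in adult mice and from 10.25 (9.0 to 11.45) to 9.68 (8.63 to 10.79) in aged mice. In both genes the arrays of the diets overlapped at each age, and between 20 and 27 CR arrays lay under the control median.

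The receptor and adhesion genes moved less but with less spread. In Cdh4 all 30 adult CR arrays (7.88 to 9.20, median 8.90) lay under the adult control median of 9.29, and 15 of 23 control arrays (8.73 to 9.47) lay above every CR array. In aged mice Cdh4 had a median of 9.21 (8.83 to 9.67) under control diet and of 8.86 (8.47 to 9.74) under CR, with 23 of 25 CR arrays under the control median. Its difference was -0.34 ± 0.06 and -0.32 ± 0.07. In Grm4 17 of 25 aged CR arrays lay under all 24 aged control arrays, although 1 aged CR array, at 7.78, was above them all. That array, replicate 4 of ZT 0, is among the 3 that stood apart. The difference of Grm4 was -0.43 ± 0.08 in adult mice (medians 6.60 and 6.23) and -0.36 ± 0.09 in aged mice (medians 6.57 and 6.11). Ntrk2 differed by -0.37 ± 0.07 and -0.30 ± 0.07, with 29 of 30 adult and 23 of 25 aged CR arrays under the control median. Its medians were 9.26 and 8.93 in adult, and 9.13 and 8.89 in aged mice.

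Car12 and Antxr2 made up the rest. Car12 differed by -0.37 ± 0.09 in adult (medians 8.38 and 8.07) and -0.41 ± 0.10 in aged mice (8.41 and 7.96). Antxr2 differed by -0.32 ± 0.08 (8.37 and 8.02) and -0.42 ± 0.08 (8.36 and 7.99). Among the 9 genes this left a range of 1.25-fold to 1.85-fold lower in adult and 1.23-fold to 1.80-fold lower in aged mice. The largest gap between the ages was that of Ccdc3, whose difference in aged minus that in adult mice was -0.19 ± 0.17, about the size of its error.

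**Figure D1:**
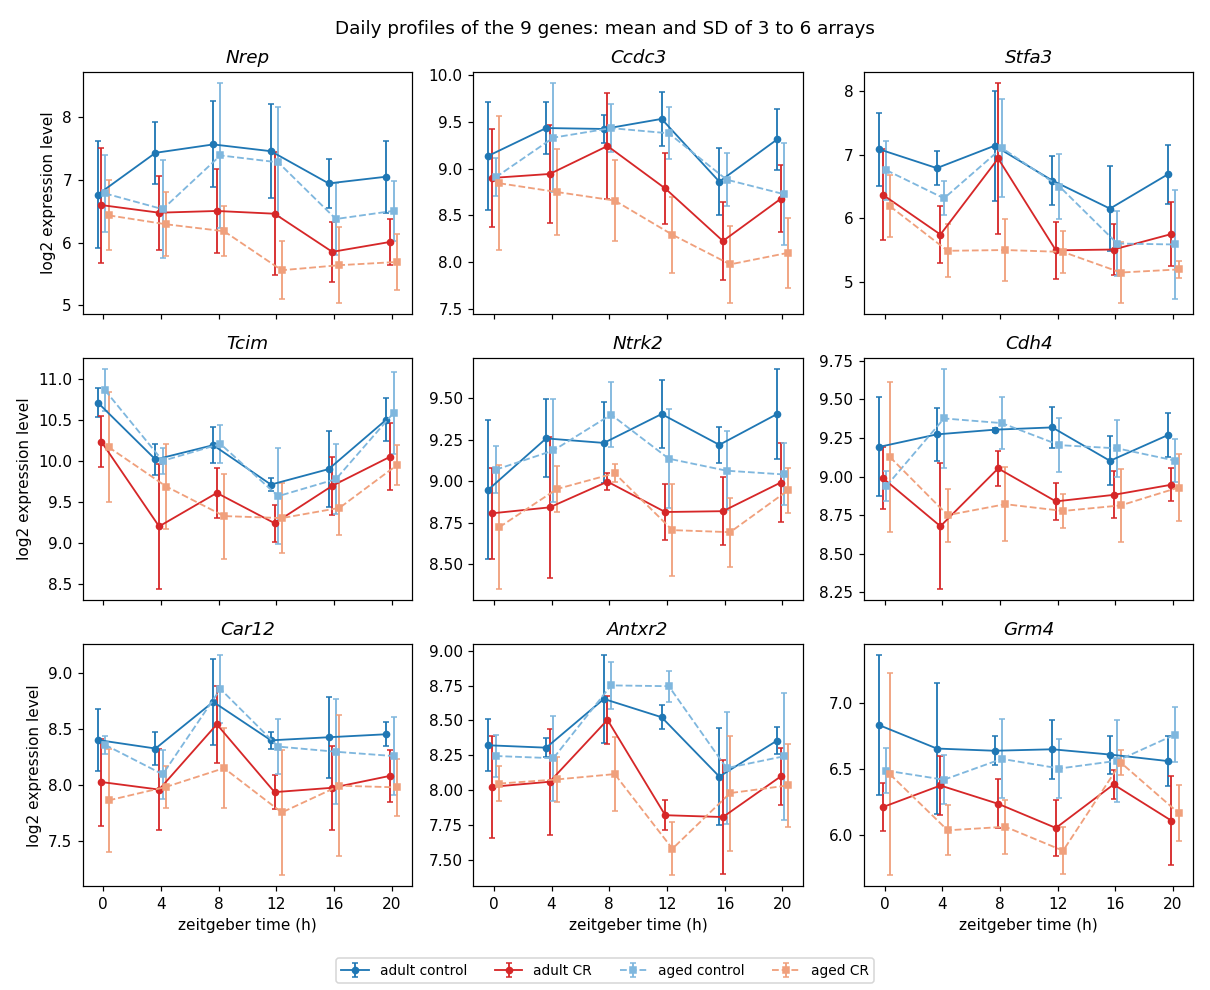
Mean log2 expression level (vertical axis) with SD against zeitgeber time in hours for each of the 9 genes, in adult (solid lines, circles) and aged (dashed lines, squares) mice on control diet (blue) or CR (red). The CR means lie below the control means of the same age at all 12 combinations of age and time for 8 genes and at 11 for Cdh4. The genes were chosen for a lower daily mean under CR, so this is a description.

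The CR means were lower at nearly all hours, but some differences were far smaller than their error. In aged mice Grm4 differed by -0.01 ± 0.21 at ZT 16 and Ccdc3 by -0.06 ± 0.29 at ZT 0. At the 12 combinations of age and time point the CR mean was below the control mean in 12 for 8 of the genes, where 25 of all genes (0.187%) showed this, and in 11 for Cdh4. The exception was aged mice at ZT 0, where the Cdh4 arrays read 8.69, 8.87, 9.56, 9.74 and 8.78 under CR and 9.03, 9.01, 8.88 and 8.83 under control diet. The 2 high CR arrays put the mean 0.19 ± 0.15 above control, and 1 of them, replicate 4 at 9.74, is among the 3 arrays that stood apart. The 12 differences make up the daily means by which the genes were chosen, so the count of lower means is a description and no test.

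Complete separation of the arrays of a time point occurred at 1 combination for Nrep, 3 each for Ccdc3, Stfa3, Tcim, Car12 and Antxr2, 4 for Ntrk2, 5 for Grm4 and 6 for Cdh4. Over all genes 19.5% separated in this direction at 1 or more combinations, 0.418% at 3 or more and 0.0448% at 5 or more. These counts use the same values as the choice of the genes and are given as a description. Their number differed between time points, and no test was made of these counts. At ZT 12 of adult mice 7 of the 9 genes separated (0.598% of all genes did), and at ZT 8 of aged mice 6 (3.08%). None did at ZT 0 at either age, where 0.269% of all genes did in adult and 0.882% in aged mice. Of the 3 arrays that stood apart, adult control replicate 1 and aged CR replicate 4 were of ZT 0.

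The widest separation was that of Antxr2 at ZT 12. Aged control arrays read 8.66, 8.68, 8.75 and 8.90 and aged CR arrays 7.82, 7.38, 7.62 and 7.48. Adult control arrays read 8.53, 8.63, 8.42 and 8.51 and adult CR arrays 7.85, 7.98, 7.81, 7.76 and 7.70. At that time the level was 2.25-fold lower in aged and 1.63-fold lower in adult CR mice, while at ZT 4 in aged mice it was 1.11-fold lower. Stfa3 differed most at ZT 8 of aged mice and hardly at ZT 8 of adult mice. Aged control arrays read 6.48, 6.87 and 7.97 against 5.94, 5.91, 5.09 and 5.06 under CR at that hour, a level 3.04-fold lower. Adult arrays overlapped fully, with 6.17, 7.82 and 7.44 under control diet and 5.54, 8.45, 6.86 and 6.91 under CR.

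**Figure D2:**
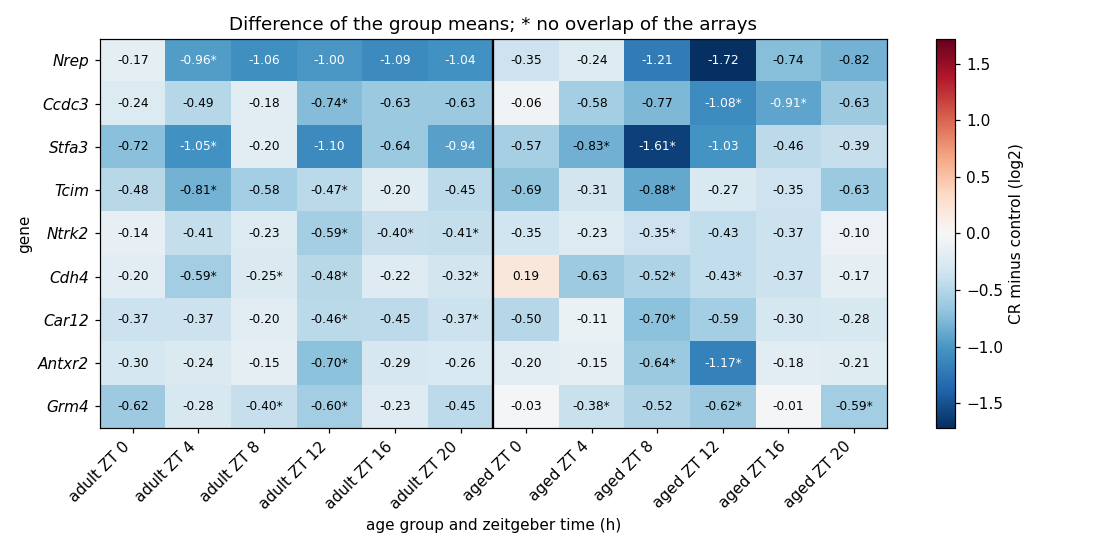
CR minus control difference of the group means (log2, colour and printed value) for the 9 genes in rows and the 12 combinations of age and zeitgeber time (h) in columns. An asterisk marks combinations in which every CR array lay below every control array, and all cells but Cdh4 in aged mice at ZT 0 are below 0. The genes were chosen for a lower daily mean in these same values.

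Whether the diet effect differed between time points was tested by an F test over the 6 times at each age. None of the 9 genes was called in adult mice, where 10 genes (0.0747%) were, and none in aged mice, where 19 (0.142%) were. Without adjustment 746 genes in adult and 1117 in aged mice had p under 0.05 in limma. The nearest were Antxr2 in aged mice (F = 4.38, adjusted p = 0.269) and Cdh4 in aged mice (F = 3.42, adjusted p = 0.435, limma). With 3 to 6 arrays per group, differences in the effect from hour to hour such as that of Antxr2 did not pass the correction over all genes.

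The course over the day was tested with a 24 h cosine curve. In a fit of 1 curve to all arrays, with a mean for each condition, 5 of the 9 genes were called rhythmic, where 6603 of all genes (49.3%) were, so the count is near the background. The amplitude, the distance from mean to peak of the curve, was large in some members. It is not scaled by the spread between arrays, so a high value alone is no sign of a rhythm. In adult control alone, Nrep had an amplitude above 95.4% of genes and was not called (adjusted p = 0.406, limma). The amplitude of Tcim was 0.45 ± 0.06, above 98.9% of genes, of Stfa3 0.40 ± 0.09 (98.3%), of Ccdc3 0.32 ± 0.06 (96.4%) and of Nrep 0.30 ± 0.09 (95.6%). The others stood at 67.1% (Antxr2), 44% (Car12), 38.8% (Grm4), 23.7% (Ntrk2) and 3.49% (Cdh4). The median was 0.13 over the 9 genes and 0.09 over all genes.

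Tcim peaked at the end of the night, at ZT 22.7 (adjusted p = 9.28e-09, limma). In adult control mice its arrays read 10.77, 10.70, 10.90 and 10.48 at ZT 0 and 9.64, 9.70, 9.69 and 9.83 at ZT 12. These hours are shown because they lie near the peak and the trough of the curve. The ZT 0 array at 10.77, replicate 1, is among those that stood apart. The peaks of Stfa3, Ccdc3 and Nrep fell in the light phase, at ZT 4.5 (adjusted p = 0.000323, limma), ZT 5.8 (4.12e-05) and ZT 6.2 (0.0115). Without the arrays of ZT 0 these 4 genes were still called, with adjusted p of 0.000409, 0.00156, 3.68e-05 and 0.0104 in limma, where 28.1% of all genes were. Antxr2 peaked at ZT 6.5 with an amplitude of 0.13 ± 0.04 (adjusted p = 0.0405, limma), and this call was lost without the arrays of ZT 0 (0.0819), with arrays centred on their median (0.0665) and without replicates 1 (0.241), 2 (0.232), 4 (0.0732) or 6 (0.0532). Ntrk2, Cdh4, Car12 and Grm4 were not called, with amplitudes from 0.02 to 0.08. Each hour was collected over several days, no label ties an array to its day, and no fit with the day as a term was made.

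**Figure D3:**
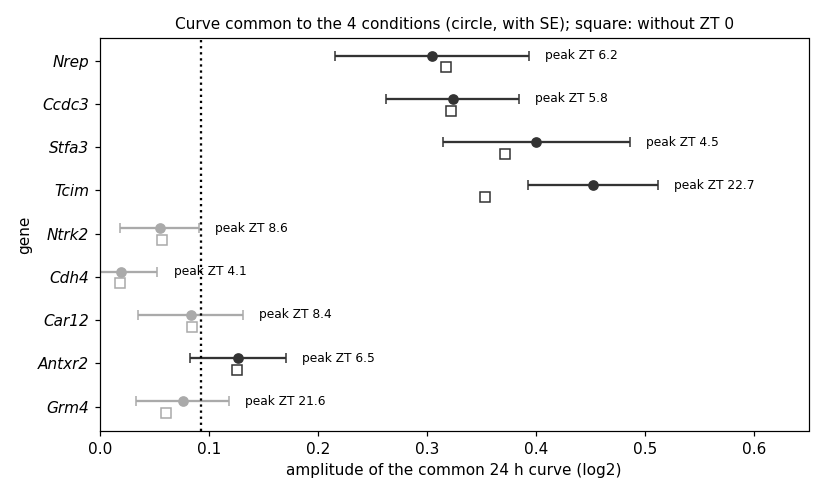
Amplitude in log2 units (horizontal axis, circle with SE) of the 24 h curve fitted in common to the 4 conditions for each of the 9 genes, with the hour of the peak beside it and the amplitude without the ZT 0 arrays as an open square. Dark symbols are genes called with all arrays, and the dotted line is the median of all genes tested, 0.09, which Tcim, Stfa3, Ccdc3, Nrep and Antxr2 exceed.

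Fitted to each condition alone, the curve was called for 1 of the 9 genes, Tcim, in each of the 4 conditions, where the shares of all genes called were 1.17% and 8.08% in adult mice on control diet and CR, 5.6% and 4.87% in aged mice, and 0.448% in all 4. Its amplitude was 0.42 ± 0.09 in adult control (adjusted p = 0.0337, limma), 0.45 ± 0.12 in adult CR (0.0492), and in aged mice 0.56 ± 0.12 under control diet (0.0242) and 0.46 ± 0.11 under CR (0.0452). The peaks lay at ZT 23.3, 21.1, 23.5 and 23.2. These calls are close to the threshold. Leaving out 1 array at a time, Tcim was called in 14 of 23 (control) and 5 of 30 (CR) fits of adult and in 21 of 24 and 8 of 25 fits of aged mice. Without ZT 0 it was called in none, with adjusted p of 0.354, 0.278, 0.197 and 0.209 in limma.

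The curves of the daytime genes are given by condition as values, since none of the 3 was called in any condition alone. The amplitude of Ccdc3 was 0.21 ± 0.11 under control diet and 0.35 ± 0.11 under CR in adult mice, and 0.39 ± 0.10 and 0.47 ± 0.13 in aged mice, with peaks at ZT 7.1, 5.3, 8.1 and 4.0. For Nrep the peaks were at ZT 8.6 and 5.3 in adult and at ZT 9.0 and 3.1 in aged mice, control before CR in each pair. Stfa3 had amplitudes of 0.36 ± 0.15, 0.36 ± 0.17, 0.64 ± 0.18 and 0.37 ± 0.13 in the same order. Whether peak hours differed between diets was covered by the F test of diet by time, which called none of these genes, and this does not show that the hours were alike. Car12 and Antxr2 had their highest mean at ZT 8 in each of the 4 conditions. For Car12 this mean was 8.74 under control diet and 8.54 under CR in adult mice, and 8.85 and 8.15 in aged mice. For Antxr2 it was 8.65, 8.50, 8.75 and 8.11 in the same order.

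With age, over both diets, none of the 9 genes was called (limma), where 12 of all genes (0.0897%, and 0.0598% lower in aged mice) were and 522 had p under 0.05 without adjustment. All 9 differences between aged and adult mice were below 0, as were 52.8% of all genes. Stfa3 came nearest, with a mean of 6.36 in adult and 5.91 in aged mice, a difference of -0.45 ± 0.11 (adjusted p = 0.0714, limma). Without the arrays numbered replicate 5 it was called (adjusted p = 0.0366, limma), and without each other replicate number it was not (0.0959 to 0.691). The difference of Nrep was -0.37 ± 0.13 (adjusted p = 0.637) and that of Ccdc3 -0.27 ± 0.09 (adjusted p = 0.55) in limma. For the other 6 it lay between -0.11 (Car12) and -0.02 (Tcim). The age difference of Stfa3 was -0.43 ± 0.16 under control diet and -0.47 ± 0.15 under CR.

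A gene can be read by several probe sets, which gives a second measurement in the same samples. The 9 genes had 18 probe sets in all, and of the 9 not used here 6 were above the filter. All 6 were lower under CR at both ages, where 40.6% of all genes tested were in adult and 49.5% in aged mice. These sets read the genes in the same samples in which they were chosen, so this is no independent evidence. The second set of Tcim differed by -0.81 ± 0.15 in adult and -0.75 ± 0.16 in aged mice, more than the one used, and correlated with it at r = 0.81 over all arrays after the group means were removed. The second set of Cdh4 differed by -0.27 ± 0.06 and -0.37 ± 0.07 (r = 0.77).

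The probe sets of Ntrk2 did not all read alike. This gene gives rise to a full TrkB receptor with a kinase domain and to truncated forms without it, but the annotation used does not say which form a probe set reads. Of its 7 sets, the 3 brightest differed by -0.37 ± 0.07, -0.55 ± 0.10 and -0.56 ± 0.09 in adult mice and by -0.30 ± 0.07, -0.34 ± 0.10 and -0.33 ± 0.10 in aged mice. The fourth differed by -0.11 ± 0.07 and -0.04 ± 0.07 and did not follow the brightest (r = -0.04). The other 3 were under the filter, with differences between -0.06 and 0.04. For Car12 the second set differed by -0.21 ± 0.15 and -0.10 ± 0.15, less than its error at the older age, and followed the first loosely (r = 0.31). Nrep, Ccdc3, Stfa3, Antxr2 and Grm4 had 1 probe set each under the rule used, which takes only probe sets that carry that symbol alone.

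Beyond the diet effect, the genes varied together in part. After the mean of each of the 24 groups was removed, the 36 pairs had a median r of 0.22 over the 53 adult and 49 aged arrays, against -0.002 over all pairs of genes. Of these pairs 12 (33.3%) had r above 0.3, which 23.4% of all pairs had, and 7 (19.4%) were below 0, as were 50.2% of all pairs. Arrays share RNA quality and the makeup of the sample, which enters every such correlation, and no test was made. Within adult arrays the median r was 0.34 and within aged arrays 0.16. Without 1 adult CR array of ZT 4 (replicate 5), which was low in several of the genes, it was 0.18.

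The highest pair was Tcim with Car12 (r = 0.65, jackknife SE 0.07), at 0.67 in adult and 0.63 in aged arrays. Ccdc3 with Ntrk2 followed (0.60, SE 0.07), and Nrep correlated with both, at 0.51 with Ccdc3 and 0.50 with Ntrk2. Cdh4 reached 0.50 with Ccdc3 and 0.475 with Grm4, but 0.23 with Ntrk2 and 0.12 with Nrep, and Grm4 was at 0.425 with Ccdc3, 0.21 with Ntrk2 and 0.12 with Nrep. Car12 with Antxr2 reached 0.46 (SE 0.13), but 0.74 in adult and 0.24 in aged arrays. At the other end, Stfa3 was at -0.21 with Cdh4 and -0.18 with Grm4, and Nrep with Tcim was at -0.04.

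**Figure D4:**
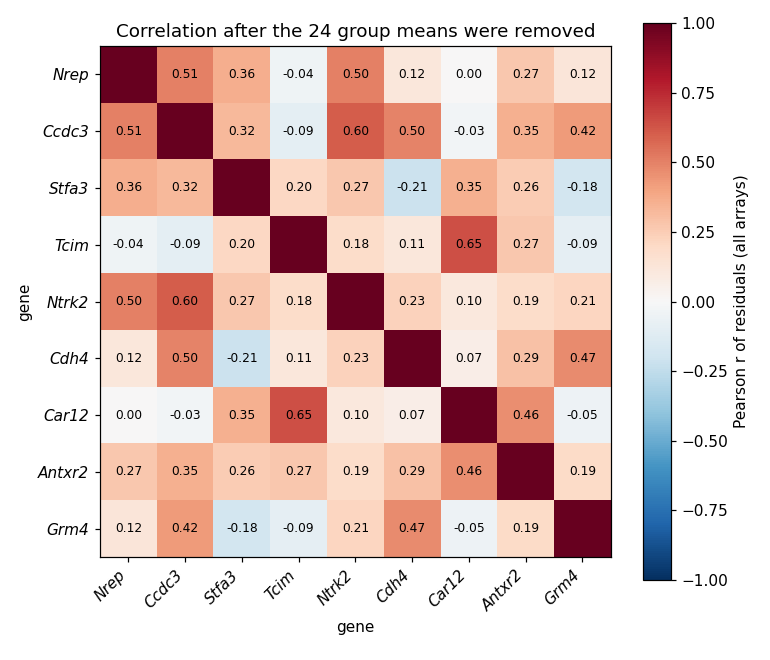
Pearson correlation (colour and printed value) between the 9 genes over all 53 adult and 49 aged arrays after the mean of each of the 24 groups was removed. The highest value is that of Tcim with Car12, 0.65, and the lowest that of Stfa3 with Cdh4, -0.21.

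The genes whose residual pattern was most like each member over the 53 adult and 49 aged arrays were mostly outside the group. For Nrep these were Zfp365 (r = 0.78), Parm1 (0.75) and Esr1 (0.74), for Ccdc3 Ppp2r5c (0.76), Dis3l (0.73) and Anxa4 (0.73), and for Tcim Slc20a1 (0.76), Trib1 (0.72) and Med13l (0.71). Ntrk2 was most like Ccdc3 (0.60), followed by the basement membrane collagens Col4a1 (0.60) and Col4a2 (0.58). The highest for the others were Stk39 for Stfa3 (0.65), Ddhd2 for Cdh4 (0.71), Myadm for Car12 (0.71), Anp32a for Antxr2 (0.72) and Egfl8 for Grm4 (0.68). Apart from Ccdc3, none of the genes just named was called for diet at either age. Zfp365, the gene most like Nrep, had a diet difference of 0.30 ± 0.11 in adult mice (adjusted p = 0.225, limma) where that of Nrep was -0.89.

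Nrep also varied with Xist, the RNA of the inactive X chromosome, which only female cells make in quantity. Xist exceeded the average level of 3 Y-linked genes on 58 arrays, namely 13 of 23 and 18 of 30 from adult mice on control diet and CR, and 14 of 24 and 13 of 25 from aged mice on the same diets. In that order of conditions the median of Nrep was 7.63, 6.71, 7.12 and 6.36 on arrays with Xist above and 6.75, 5.74, 6.15 and 5.43 on arrays with Xist below. Within both kinds of array the CR medians were lower. Nrep was chosen for a lower level under CR in these same arrays, so this is a description and no test. Xist was chosen as a covariate at the outset, while the test of its slope was added after this pattern was seen. The slope was 0.14 ± 0.01 per log2 unit of Xist for Nrep (adjusted p = 1.94e-11), 0.04 ± 0.01 for Ntrk2 (0.000328) and 0.05 ± 0.01 for Ccdc3 (0.0171) in limma, where 6.42% of all genes were called. The other 6 were not called.

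With that slope in the model the diet difference of Nrep was -0.90 ± 0.13 in adult and -0.81 ± 0.13 in aged mice, and its SE fell from 0.18. The correlations among Nrep, Ccdc3 and Ntrk2 were lower after the adjustment, at 0.38 for Nrep with Ccdc3, 0.25 for Nrep with Ntrk2 and 0.52 for Ccdc3 with Ntrk2, whereas that of Nrep with Stfa3 was 0.365 before and 0.579 after it.

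**Figure D5:**
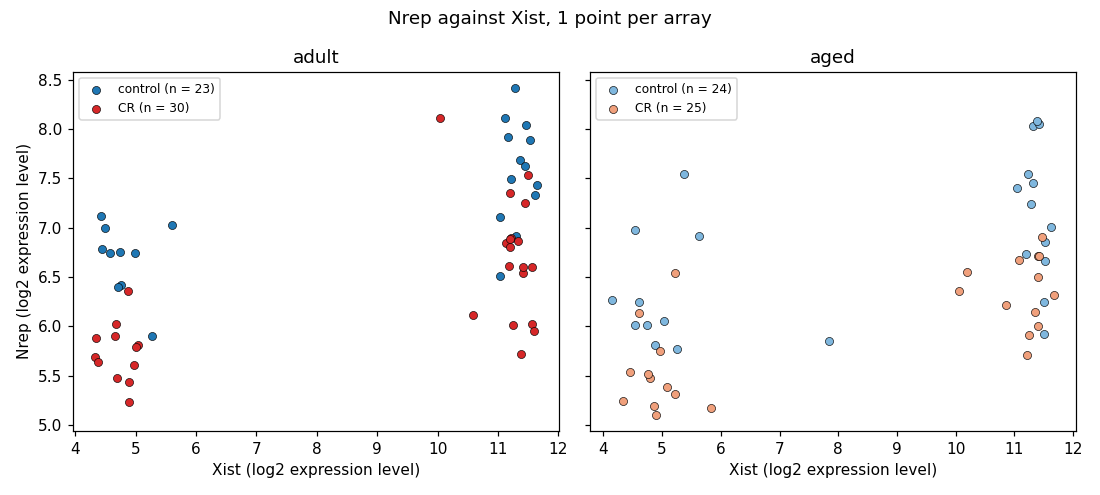
Level of Nrep against that of Xist (both log2), 1 point per array, in adult (left) and aged (right) mice, coloured by diet. Apart from 1 aged control array at an Xist level of 7.85, arrays form a group with low and a group with high Xist. In adult mice the CR medians were 6.71 (high Xist) and 5.74 (low Xist), against control medians of 7.63 and 6.75. Nrep was chosen for a lower level under CR in these arrays, so this is a description.

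Few partners of these genes were called. The lists were drawn up from general knowledge of each member, with earlier results of these data known, so a call within them is no independent evidence. Unless stated, counts are of listed genes that had a probe set of their own and passed the filter. Of 11 neurotrophin genes besides Ntrk2 none was called in either direction at either age (0.553% of all genes were in adult and 0.276% in aged mice), and their median difference was 0.03 and 0.02. Bdnf, the ligand, differed by -0.04 ± 0.06 and 0.03 ± 0.06, and Ngfr, the low-affinity receptor, by 0.18 ± 0.11 and -0.10 ± 0.11. Of 13 stefins and cystatins listed, 6 had a probe set of their own and 5 were tested. Stfa1, Stfa2 and Stfa2l1 were not among them. None of the 5 was called, with Csta1 at -0.08 ± 0.07 and -0.20 ± 0.07 and Cstb at -0.05 ± 0.06 and -0.07 ± 0.06. Nor was any of the 6 tested cathepsins. None of 8 cadherin and catenin genes, 13 carbonic anhydrases and pH regulators, 13 glutamate receptor and Homer genes or 8 adipokine and lipid genes was called. Cdh1 and Cdh3, the main cadherins of the epidermis, differed by 0.01 ± 0.07 and -0.07 ± 0.06 in adult mice.

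Of 14 TGF-beta genes none was called, with 9 below 0 in adult and 12 in aged mice, where 40.6% and 49.5% of all genes were. Tgfb1 differed by -0.09 ± 0.09 and -0.15 ± 0.09. In the list of anthrax toxin receptors and their matrix ligands, 1 of 10 was called lower at each age, Col6a1, a chain of the collagen that Antxr2 is known to bind, at -0.67 ± 0.14 (adjusted p = 0.0055, limma) and -1.06 ± 0.15 (3.48e-06). Col6a1 and Sfrp1 are 2 of the 6 other genes already named as lower at both ages. In the Wnt list 1 of 17 was called lower at each age, Sfrp1, a secreted Wnt inhibitor, at -0.27 ± 0.07 (adjusted p = 0.0429, limma) and -0.44 ± 0.07 (0.00035). Of 21 genes known to respond to fasting or restriction, 1 was called lower and 1 higher in adult mice and none in aged mice. These were Igfbp3, a binding protein of insulin-like growth factors, at -0.37 ± 0.07 (adjusted p = 0.00104, limma), and Acot1, a thioesterase of fatty acid metabolism, at 0.50 ± 0.12 (0.0265).

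Markers of other cells were measured in the same way. None of the markers of basal, bulge, upper follicle, suprabasal, sebaceous, melanocyte, leukocyte, neutrophil, endothelial, nerve, fat or Merkel cells that passed the filter was called at either age. Of the 5 fibroblast markers that passed, 1, Thy1, was called lower at both ages, at -0.49 ± 0.13 and -0.59 ± 0.13. Col1a1, Col3a1, Dcn and Vim were not called. They differed by -0.09 (Col1a1) to -0.02 (Vim) in adult mice. In aged mice they differed by -0.05 (Vim) to 0.04 (Col1a1 and Dcn). The mean of all 5 ranged from 5.94 to 6.65 under control diet and from 5.70 to 6.37 under CR in adult mice. In aged mice this mean ranged from 5.90 to 6.46 and from 5.65 to 6.54 on the same diets. Its residual correlation was 0.34 with Ccdc3, 0.36 with Grm4 and -0.41 with Tcim over all arrays, and its part in the diet differences was not tested. Several lists varied against Tcim and Car12. The residual correlations were -0.57 and -0.56 for the hair matrix list, -0.445 and -0.44 for the Merkel list, -0.42 and -0.23 for the leukocyte list and -0.41 and -0.29 for the fibroblast list, and the basal list was at -0.41 with Grm4. Antxr2 was at -0.36 with the hair matrix list and at -0.34 with the Merkel list. The hair matrix list had medians of 5.54, 5.56, 5.57 and 5.53 in the 4 conditions. Those of the Merkel list were 5.21, 5.23, 5.24 and 5.21, where the filter lay at 4.73. The part of these cell types in the results was not tested.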

How the data were processed

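Expression was measured in mouse epidermal stem cells, 53 samples of adult and 49 of aged mice, on Affymetrix mouse PM arrays, 1 array per sample. The authors deposited log2 expression values made with RMA, per the submitters' processing notes, and its version is not given in the sources used here. RMA corrects the background, equalises the distributions of the arrays and summarises the probes of a set, so a shift of all genes at once is not visible. The values were used as deposited, and the depth of an array has no counterpart here: the number of arrays, 3 to 6 per group, limits the precision.

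The table held 45140 probe sets, of which 28898 carried 1 gene symbol in the platform annotation and 551 several, which were not used. Each gene was represented by its probe set with the highest mean over all arrays, and genes with a mean below 4.73, the 30th percentile of the probe sets other than the 103 controls, were left out. limma 3.58.1 in R 4.3.3 modelled 13383 genes by 24 group means, 1 per age, diet and hour. Contrasts over the 6 time points gave the diet effect at each age, the age effect and the diet effect by time point, and a cosine and sine of 24 h gave the rhythm. P-values were adjusted over all genes tested, with a threshold of 0.05. The curve common to the 4 conditions and the test of the slope on Xist were added after the data were seen. Scripts were tested on simulated data.

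The 9 members, the gene lists and the markers were chosen with earlier results of these data known. Like genes were the 3 with the highest residual correlation with each member. Per the series' design, 1 mouse per diet group was taken per day and all mice of a day shared a time point. Replicate numbers were not used to pair arrays in the main model. Over 46 pairs of the same age, time point and number, deviations from the group means correlated at a mean r of 0.05. The pairs ran from -0.51 to 0.58, with 22 above 0.1, so pairing by number was neither shown nor excluded. Alternatives covered the probe set, the filter, centring, array weights, a replicate block, Xist as a covariate, time points and arrays left out.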

Additional observations from a re-analysis of the deposited data

Results flagged for a closer look

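In each of the 9 genes, every group of 4 to 6 arrays was searched for an array whose gap to the next was large for the range of its group. Of 189 such groups 12 stood out, where chance gives about 9.45 (1 in 20).

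The array of adult CR mice at ZT 4 labelled replicate 5 was the lowest of its 6 in 8 of the 9 genes, all but Stfa3, and its gap met the criterion in 3, with Tcim at 7.65 (next 9.44), Cdh4 at 7.88 (next 8.65) and Car12 at 7.28 (next 7.89). Without it the residual correlation of Tcim with Car12 was 0.62 in place of 0.65. In aged CR mice Nrep was low on 1 array at ZT 0, at 5.47 (next 6.54), Stfa3 was high on 1 array at ZT 12, at 5.96 (next 5.33), and Ntrk2 was low on 1 array at ZT 8, at 8.97 (next 9.07). In aged control mice Stfa3 was high on 1 array at ZT 20, at 7.06 (next 5.43), Tcim on another array of ZT 20, at 11.45 (next 10.48), and Cdh4 was low on 1 array at ZT 16, at 8.91 (next 9.25). In adult mice Ccdc3 was high on 1 control array at ZT 12, at 9.97 (next 9.40), Ntrk2 was low on 1 CR array at ZT 20, at 8.58 (next 9.01), and Grm4 was high on 1 CR array at ZT 8, at 6.52 (next 6.17).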

How the results depend on the processing

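The diet differences of the 9 genes stayed below 0 in all 180 values computed under other settings. The genes were chosen for these differences in the same arrays, so their sign is a description and no test. Settings that changed only which genes were tested, such as no filter on dim genes, left the values as they were. For Nrep the differences ran from -0.95 to -0.82 in adult and from -0.96 to -0.79 in aged mice when 1 array was left out. Counts over all genes moved more, and the cause was not tested. For the diet effect, array weights (whose fit stopped before it converged) called 8.44% of genes in adult mice (544 lower) in place of 0.553% (31), and 3.78% in aged mice (226 lower) in place of 0.276% (26). Centred arrays gave 49 lower in adult mice and 0.501% (54 lower) in aged mice, and without ZT 0 the shares were 0.284% and 0.426%. Without the 3 arrays that stood apart, 0.441% were called in aged mice (41 lower). Leaving out 1 array gave 0.276% to 0.762% (17 to 48 lower) in adult and 0.164% to 0.411% (14 to 39 lower) in aged mice. The diet effect by time point gave 7 to 52 calls in adult mice without 1 array, and 32 in aged mice with centred arrays. For age, 19 genes were called with every probe set, 23 with Xist as a covariate and 2 to 20 without 1 replicate number, of the 9 genes 0 to 1.

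For the rhythm, in adult control 888 genes were called with all arrays in 1 fit, 871 with the replicate block in that fit, 534 by any difference among times and 87 to 212 without 1 array, against 156. Of the 9 genes none (0) was called there with all arrays, with the block, without the 3 arrays or without ZT 0. In adult CR 306 genes were called without ZT 0, of the 9 genes 0 there and without the filter, and 0 to 2 without 1 array. In aged control the count was 1138 without the 3 arrays, 88 without ZT 0 and 345 to 1138 without 1 array. Of the 9 genes 2 were called there with all arrays, the block or centring, 3 without the 3 arrays, 0 without ZT 0 and 0 to 3 without 1 array. In aged CR 998 genes were called with all arrays, 984 with the block, 221 without ZT 0 and 347 to 987 without 1 array. Of the 9 genes 2 were called with all arrays or the block, 0 by any difference among times, without the filter or without ZT 0, and 0 to 3 without 1 array. The curve common to the conditions gave 3757 genes without ZT 0 and 4218 to 6744 without 1 replicate number, with 4 to 5 of the 9 genes. The replicate block (consensus correlation 0.0459) changed no other call of the 9 genes. The median correlation was 0.337 within adult arrays.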
